A study of Arabidopsis thaliana with 8 samples.

Results

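The cold response of lsm8-1 is the difference between a library of lsm8-1 plants kept for 24 h at 4 °C and a library of lsm8-1 plants kept at 20 °C. Arabidopsis lsm8-1 is a mutant line of LSM8, a subunit of the nuclear LSM ring on the U6 RNA of the spliceosome, and the accession Col-0 is its wild type. Both libraries are RNA-seq of 2-week-old plants labelled as leaf material and grown in soil, and the plants at 4 °C also received less light, 40 against 90 µmol m-2 s-1. Temperature and light therefore cannot be told apart, and the hour of sampling is not stated. The series holds 8 libraries in all, of which 2 form this comparison; the same pair of Col-0 (4 °C and 20 °C, same ages, light and soil) stands beside it, and the salt experiment is not used. Members were genes with at least 5 CPM (reads of a gene per 1e6 reads of its library, after scaling by the TMM method) in at least 1 of the lsm8-1 libraries, which left 13988 of the 23364 genes with a read in the cold experiment.

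Each condition is 1 library, and whether it pools several plants is not stated. No difference below has a replicate check or a test. A gene is said to have risen or fallen when the ratio of CPM + 1 between 4 °C and 20 °C reached 2-fold, that is, 1 on the log2 scale. Folds given with an interval are ratios of CPM without the added 1, and the interval is an exact (Clopper-Pearson) 95% interval that covers counting error only. In such libraries, fewer cells of a type and less RNA per cell cannot be told apart.

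Plants of temperate regions raise their freezing tolerance during days at low, non-freezing temperature, a process called cold acclimation. In Arabidopsis the CBF transcription factors are induced early, bind a short promoter element known as the CRT/DRE, and activate COR genes, many of which encode hydrophilic proteins that protect membranes and proteins. Sugars and proline accumulate, growth slows, and the clock and the photosynthetic apparatus adjust. LSM8 belongs to the machinery that removes introns, and the nuclear LSM ring has been linked to abiotic stress responses in this species.

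Total counts were close, 45.9 M reads (M is 1e6) each in lsm8-1, with 45.9 and 44.2 M in Col-0 at 4 °C and 20 °C, and the 4 libraries listed 21511 to 21848 genes, with 9.42% to 13.1% of reads in the 10 highest. A count of 0 allows up to 3 reads, 0.063 CPM in either lsm8-1 library. LSM8 (AT1G65700) had 17.3 CPM at 4 °C and 4.33 CPM at 20 °C in lsm8-1, against 40.1 and 13.9 CPM in Col-0, so it was lower in the mutant at both temperatures and read in every library. In the deposited coverage column, reads covered 67.6% and 55.8% of the LSM8 gene in lsm8-1 at 4 °C and 20 °C, and 70.5% and 62.6% in Col-0. Of the leaf marker genes, 8 of 8 were read at more than 15 CPM at both temperatures, and their summed level was 50835 CPM at 4 °C and 63015 CPM at 20 °C. Of 7 root markers, 1 reached 5 CPM (BGLU23, a beta-glucosidase, with 34.3 CPM at 4 °C and 71.9 CPM at 20 °C), and EXPA7 had no read. The 4 flower, 3 seed and 3 shoot meristem markers summed to 2.29, 0.778 and 3.39 CPM at 4 °C and to 2.71, 0.21 and 4.77 CPM at 20 °C, and CLV3 and SESA3 were at 0 in both. What part a shift in tissue make-up had in the results was not tested.

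Promoters of some of the 15 genes with the highest ratios are shown first, picked for a short sequence they hold. In all but GRP7 this is the CRT/DRE core. COR15B, KIN1, KIN2, ELIP1, ELIP2, UGT78D3 and AZI1, also among the 15, hold no CCGAC in this window and are not shown. CCGAC stood in the window of 7 of the 15. The sequences are the 250 bases before the annotated gene start, read 5′ to 3′ on the gene's strand from the RefSeq genome TAIR10.1. The loci are LTI30 (AT3G50970, plus strand, chr3:18940393-18940642), COR15A (AT2G42540, minus strand, chr2:17712331-17712580), COR78 (AT5G52310, plus strand, chr5:21240467-21240716) and GOLS3 (AT1G09350, plus strand, chr1:3019389-3019638). Capitals mark the CRT/DRE core CCGAC, or GTCGG where it lies on the other strand.
LTI30: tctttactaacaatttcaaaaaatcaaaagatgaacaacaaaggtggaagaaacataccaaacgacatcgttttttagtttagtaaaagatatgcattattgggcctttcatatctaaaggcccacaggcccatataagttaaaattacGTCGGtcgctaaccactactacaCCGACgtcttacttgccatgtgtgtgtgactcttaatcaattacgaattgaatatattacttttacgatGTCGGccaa
COR15A: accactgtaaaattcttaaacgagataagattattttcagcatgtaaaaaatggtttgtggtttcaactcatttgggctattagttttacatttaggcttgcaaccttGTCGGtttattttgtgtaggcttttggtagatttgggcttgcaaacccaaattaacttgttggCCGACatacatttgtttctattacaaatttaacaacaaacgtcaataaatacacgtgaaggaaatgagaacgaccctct
COR78: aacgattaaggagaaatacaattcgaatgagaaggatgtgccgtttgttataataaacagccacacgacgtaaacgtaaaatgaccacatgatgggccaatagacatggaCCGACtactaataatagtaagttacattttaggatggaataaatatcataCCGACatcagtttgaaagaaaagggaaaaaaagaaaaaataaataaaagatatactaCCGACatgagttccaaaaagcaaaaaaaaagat
GOLS3: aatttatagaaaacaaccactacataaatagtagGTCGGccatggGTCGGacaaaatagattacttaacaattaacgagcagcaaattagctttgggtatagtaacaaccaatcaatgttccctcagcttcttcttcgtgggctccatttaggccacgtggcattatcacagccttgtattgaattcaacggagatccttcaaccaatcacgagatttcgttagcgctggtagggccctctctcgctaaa
The core begins 101, 78 and 9 bases before the start in LTI30, 142 and 79 bases before it in COR15A, 140, 90 and 33 bases before it in COR78, and 216 and 205 bases before it in GOLS3. In GRP7 (AT2G21660, minus strand, chr2:9266558-9266807) the window has no CCGAC but 3 copies of AAAATATCT, the evening element of clock-controlled promoters, in capitals here (AGATATTTT on the other strand).
GRP7: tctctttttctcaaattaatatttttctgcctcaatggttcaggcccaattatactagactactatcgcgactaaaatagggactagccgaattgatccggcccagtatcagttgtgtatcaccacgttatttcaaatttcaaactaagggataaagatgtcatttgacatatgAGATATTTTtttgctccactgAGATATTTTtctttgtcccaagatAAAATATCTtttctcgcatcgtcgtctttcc

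In lsm8-1 the cold experiment moved 2884 genes past 2-fold, 20.6% of those compared. At 4 °C 1662 genes rose (11.9% of the 13988 compared) and 1222 fell (8.74%). The changes were larger upward: 398 genes rose and 253 fell by 4-fold or more, 121 and 50 by 8-fold, 43 and 9 by 16-fold, and 22 and 4 by 32-fold. The median log2 ratio of all genes compared was 0.03. Close to the threshold stood SNL6, which rose, at 46.8 CPM at 4 °C and 22.9 CPM at 20 °C, and BIK1 just outside, at 14.9 and 6.93 CPM; on the lower side AT4G01410 fell, with 4.1 and 9.2 CPM, and UMAMIT36 did not, with 2.25 and 5.48 CPM. The strip plot by gene list shows where the named groups lay.

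**Figure D1:**
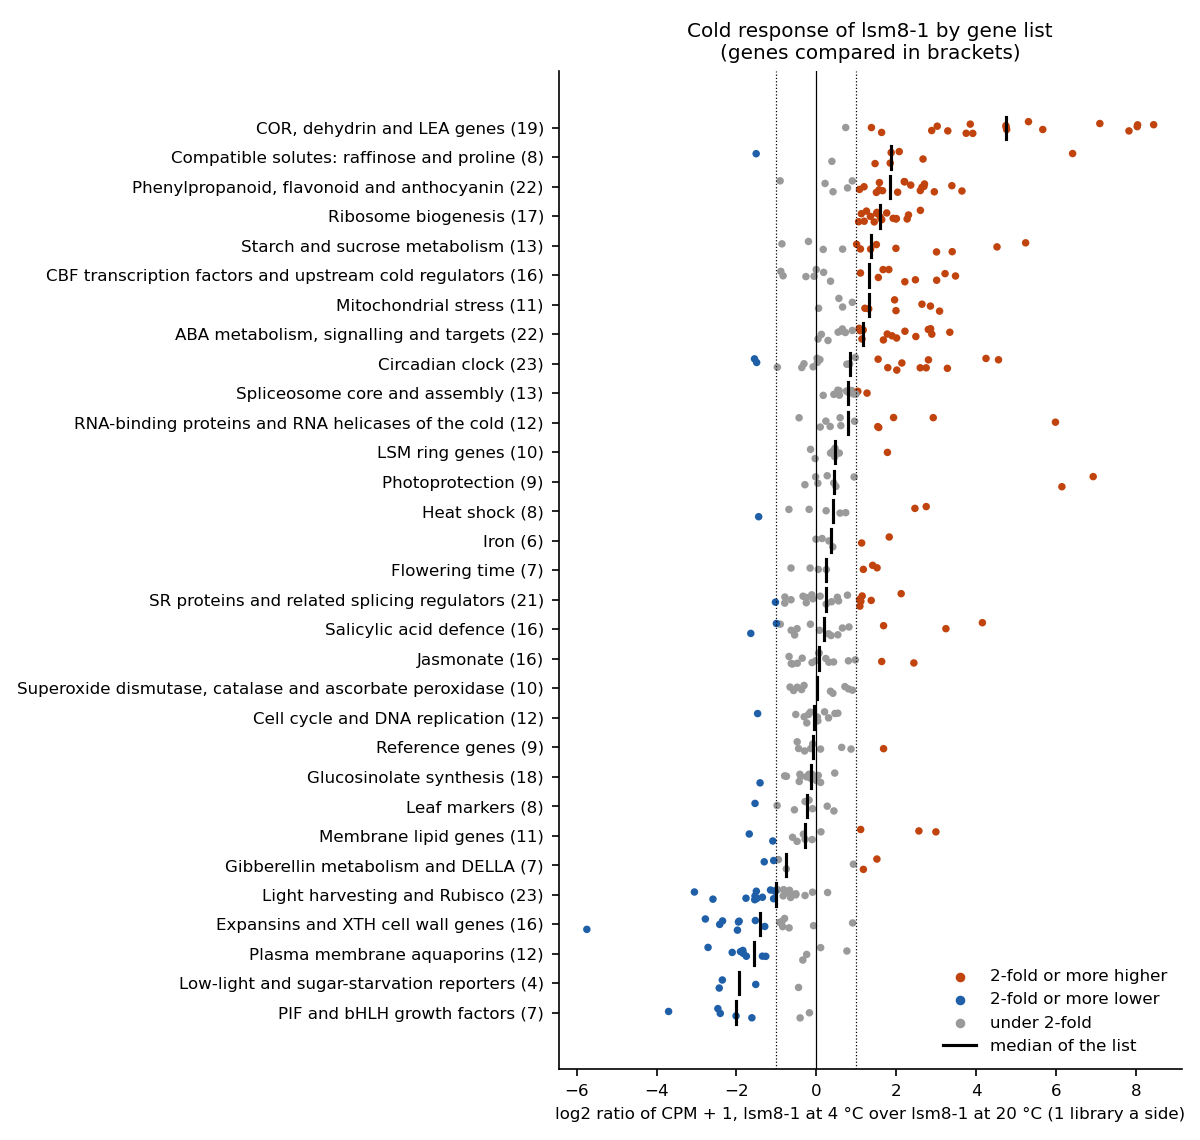
Each point is a gene of a list, placed by its log2 ratio of CPM + 1 in lsm8-1 at 4 °C over lsm8-1 at 20 °C (1 library a side), for lists with at least 4 genes compared; dotted lines mark 2-fold and black bars the list medians. COR, dehydrin and LEA genes lie farthest to the right (median 4.74), and PIF and bHLH growth factors farthest to the left (median -2.01).

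COR, dehydrin and LEA genes, the protective proteins of cold acclimation, rose most. Of 19 compared, 18 rose and none fell, with a median log2 ratio of 4.74 against 0.03 over all genes compared. Together the 21 members took 2.67% of all reads at 4 °C and 0.0619% at 20 °C, a summed level 43.2-fold higher. LTI30, a dehydrin that binds membranes, had the highest ratio of all 13988 genes, with 1141 CPM at 4 °C and 2.29 CPM at 20 °C, 498-fold (interval 413 to 607). COR15A, which protects chloroplast membranes, stood at 6467 CPM at 4 °C and 23.6 CPM at 20 °C, 274-fold (258 to 291), and gained more CPM than any other gene. Its neighbour COR15B (AT2G42530) stood at 1669 CPM at 4 °C and 5.4 CPM at 20 °C, 309-fold (274 to 351). The small hydrophilic protein KIN1 (AT5G15960) had 667 CPM at 4 °C and 1.95 CPM at 20 °C, 341-fold (279 to 423), and its near copy KIN2 (AT5G15970) had 2227 and 42.9 CPM. COR78, also known as RD29A, had 5634 CPM at 4 °C and 40.3 CPM at 20 °C, 140-fold (134 to 146).

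The acidic dehydrins followed. ERD10 had 3289 CPM at 4 °C and 121 CPM at 20 °C, COR47 had 2456 and 90.9 CPM, and ERD14 had 326 and 125 CPM. Among the COR413 membrane proteins, COR413IM1 of the chloroplast envelope had 162 and 3.11 CPM and COR413-PM1 of the plasma membrane 962 and 70.7 CPM, while COR413IM2, at 16.3 and 9.43 CPM, was the 1 compared member that stayed under 2-fold. LEA7 and RCI2B stayed below 5 CPM in both libraries and were not compared. Of the genes usually tied to abscisic acid, RD29B had 12 CPM at 4 °C and 0.336 CPM at 20 °C and the dehydrin RAB18 12.5 and 3.36 CPM. Reads were counted only where uniquely placed, so the values of the near-identical pairs KIN1 and KIN2 and COR15A and COR15B are uncertain, and COR15B overlaps a gene on the opposite strand, which unstranded counts would mix with it.

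**Figure D2:**
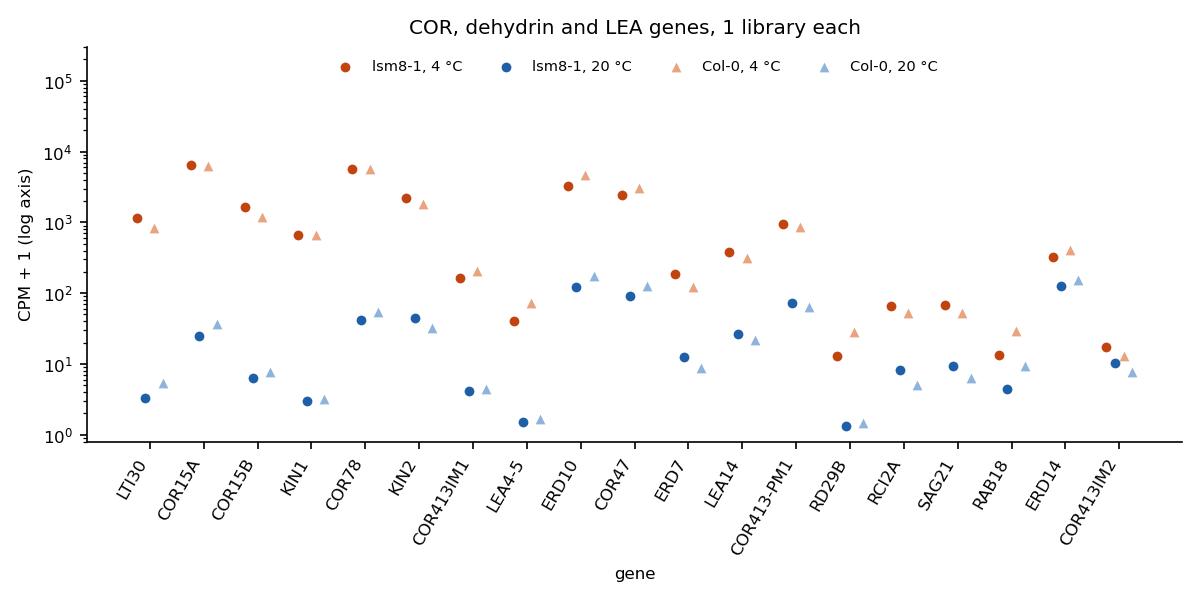
CPM + 1 on a log axis of the 19 COR, dehydrin and LEA genes compared, 1 library a point, in lsm8-1 at 4 °C and 20 °C (circles) and in Col-0 at 4 °C and 20 °C (triangles), ordered by the ratio in lsm8-1. In both genotypes all 4 °C points lie above the 20 °C points, and for LTI30 the mutant has 1141 and 2.29 CPM against 829 and 4.35 CPM in Col-0.

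The transcription factors upstream of these genes were read at low levels after 24 h. Of 16 genes of the list of CBF factors and upstream cold regulators that were compared, 9 rose and none fell (median 1.33). Among all genes compared, 11.9% rose and 8.74% fell. CBF3 (AT4G25480) had 11.3 CPM at 4 °C and 0.105 CPM at 20 °C, and CBF2 (AT4G25470) 5.19 and 0.336 CPM. CBF1 reached 1.16 CPM at 4 °C, under the 5 CPM limit, and had 0.084 CPM at 20 °C, so it was not compared; the CBF genes are near copies of each other and share reads that the counting drops. Zinc-finger factors of the early cold wave were also higher, with ZAT6 at 20.2 and 1.28 CPM, ZAT12 at 14.9 and 1.85 CPM and ZAT10 at 76.1 and 20.9 CPM, at 4 °C and 20 °C. RAP2.1, a repressor that CBF factors activate, had 37 CPM at 4 °C and 3.72 CPM at 20 °C. Proteins that act on the CBF genes moved less. ICE1, a bHLH activator, had 28.5 and 25 CPM, the ubiquitin ligase HOS1 38.3 and 29.8 CPM, and the calmodulin-binding activators CAMTA1, CAMTA2 and CAMTA3 had log2 ratios of -0.89, -0.26 and -0.01. The kinase OST1 rose, with 40.5 CPM at 4 °C and 18.3 CPM at 20 °C.

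Promoter words were counted in the 250 bases before the gene start, on both strands, for the 13917 nuclear genes compared that the annotation places. CCGAC was found in 17.3% of the genes that rose, 10.3% of those that fell and 13.3% of all compared. The share was 22.1% of genes that rose 4-fold or more, 34.8% at 8-fold, 41.9% at 16-fold (18 of 43 genes) and 36.4% at 32-fold (8 of 22). The evening element AAAATATCT stood in 6.15% of the genes that rose, 1.4% of those that fell and 2.62% of all, in 18.6% of the genes that rose 16-fold and in 13.6% of those that rose 32-fold. The ABRE core ACGTG, the word bound by abscisic acid-responsive factors, stood in 26.6% of the genes that rose, 24.2% of those that fell and 23.2% of all. Its share was 38.2% of genes that rose 4-fold or more, 40.7% at 8-fold, 48.8% at 16-fold and 63.6% at 32-fold. CCGAC and ACGTG can share letters where they overlap, and ACGTG is counted once per window. Among all 37899 annotated nuclear genes the shares were 12%, 2.11% and 20.8% for CCGAC, AAAATATCT and ACGTG. A match is a string of letters, not a shown binding site. Of the 15 genes with the highest ratio, 7 had CCGAC in the window, 3 the evening element and 9 ACGTG. COR15B, KIN1 and KIN2 had no CCGAC in these 250 bases.

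**Figure D3:**
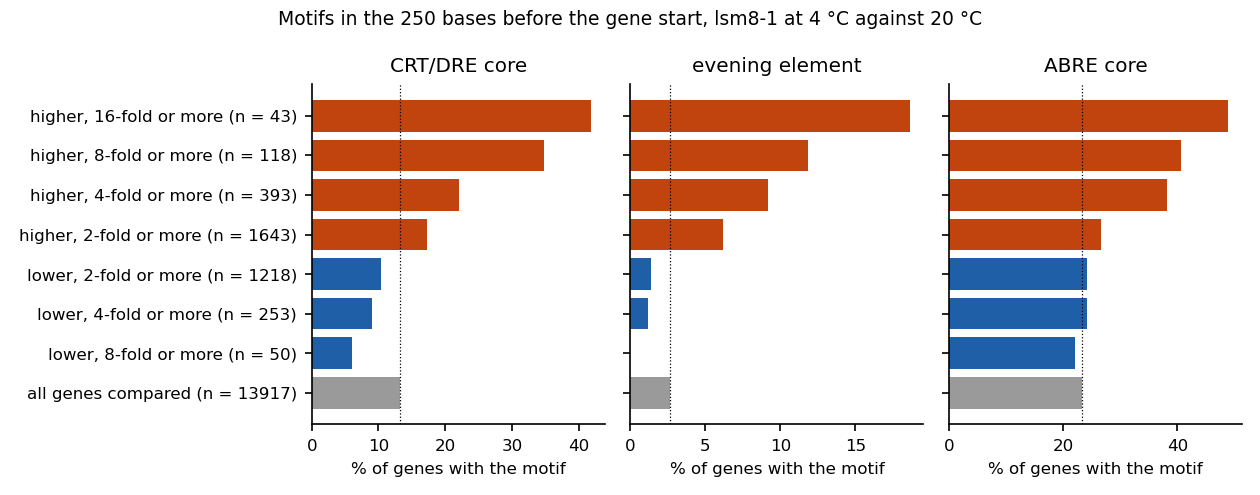
Percent of genes with each word in the 250 bases before the start, on either strand, by how far they rose or fell in lsm8-1 at 4 °C against 20 °C; the dotted line and the grey bar give all genes compared. The CRT/DRE core and the evening element are found in 41.9% and 18.6% of genes that rose 16-fold or more, against 13.3% and 2.62% of all. For the ABRE core the shares are 48.8% and 23.2%.

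The other genes of the 15 highest included both early light-induced proteins, chlorophyll-binding proteins that are thought to guard the thylakoid under light stress. ELIP2 (AT4G14690) had 1858 CPM at 4 °C and 14.3 CPM at 20 °C, 130-fold (121 to 140), and ELIP1 (AT3G22840) had 2116 and 29 CPM. The plants at 4 °C had the lower light, and the part of light in these values was not tested. The other 7 photoprotection genes compared stayed under 2-fold, among them the PSII subunit PSBS, needed for heat dissipation, at 3130 and 2595 CPM, and the xanthophyll enzyme VDE at 73 and 37.5 CPM. UGT78D3 (AT5G17030), a flavonol glycosyltransferase, had 151 CPM at 4 °C and 0.546 CPM at 20 °C, 277-fold (189 to 424). AZI1 (AT4G12470), a lipid-transfer-type protein of systemic immunity, had 1125 and 20.8 CPM. AT2G43620, annotated as a chitinase, had 213 and 3.68 CPM, AT4G30650, of a low-temperature-responsive family, 400 and 6.56 CPM, and the uncharacterized AT1G16850 261 and 2.69 CPM. AT5G50360 was the 1 gene with no read at 20 °C and at least 5 CPM at 4 °C, where it had 5.57 CPM, at least 88.4-fold above the 3-read limit; it was named after its values were seen.

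Genes of raffinose and proline synthesis rose and a gene of proline breakdown fell. GOLS3, a galactinol synthase that makes the donor for raffinose, had 352 CPM at 4 °C and 3.15 CPM at 20 °C, 112-fold (95.2 to 132), and was the eighth highest of all genes. The related GOLS1 and GOLS2 had 94.4 and 12.8 CPM at 4 °C against 21.7 and 3.99 CPM at 20 °C, and the raffinose synthase RS5 had 86.4 and 22.9 CPM. The proline synthesis genes P5CS1 and P5CS2 had 294 and 925 CPM at 4 °C, against 81.1 and 145 CPM at 20 °C. PRODH1, the proline dehydrogenase, fell to 13 CPM at 4 °C, against 38.9 CPM at 20 °C. P5CR, the last step of proline synthesis, stayed under 2-fold at 72.6 and 55.3 CPM. Of the 8 genes 6 rose and 1 fell, beside 11.9% risen and 8.74% fallen of all genes compared.

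Starch breakdown and sucrose genes rose as well, 9 of 13 (median 1.36) with none falling. Among all genes compared, 11.9% rose and 8.74% fell. BAM3, the plastid beta-amylase that releases maltose, had 6446 CPM at 4 °C and 611 CPM at 20 °C, 10.6-fold (10.4 to 10.7), and gained the most CPM after COR15A. The starch dikinases GWD1 and PWD, which phosphorylate starch so that it can be degraded, had 421 and 102 CPM at 4 °C against 51.6 and 35.5 CPM at 20 °C. SUS1, a sucrose synthase, had 813 and 20.6 CPM, and the glucose-phosphate translocator GPT2 31.6 and 0.42 CPM. Of the sucrose phosphate synthases SPS2F and SPS1F rose (log2 1.99 and 1.1), and SPS4F had -0.86. BAM3 and SPS4F overlap genes on the opposite strand.

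Membrane lipid genes did not move as a group: 3 of 11 rose, 2 fell, and the median was -0.28. The shares of all genes compared were 11.9% risen and 8.74% fallen. The acyl-lipid desaturase ADS2 had 164 CPM at 4 °C and 19.8 CPM at 20 °C, the temperature-induced lipocalin TIL 896 and 151 CPM, and the desaturase FAD3 of the endoplasmic reticulum 250 and 116 CPM. FAD5, a chloroplast palmitate desaturase, fell to 240 CPM at 4 °C, against 513 CPM at 20 °C, and ADS1 to 1.51 CPM, against 7.06 CPM.

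Because LSM8 acts in splicing, genes of RNA processing are given next. Among the RNA-binding proteins and helicases tied to cold, 5 of 12 rose and none fell (median 0.78). The shares of all genes compared were 11.9% risen and 8.74% fallen. GRP7, a glycine-rich RNA-binding protein under clock control, had 2511 CPM at 4 °C and 38.7 CPM at 20 °C, 64.8-fold (61.9 to 67.9), and its paralog GRP8 had 203 and 25.9 CPM. GR-RBP2 (146 and 37.7 CPM), the cold shock domain protein CSP1 (24.5 and 7.65 CPM) and the helicase RH7 (169 and 57.5 CPM) also rose at 4 °C. CP31A, a chloroplast ribonucleoprotein, was the 1 member below 0, at 922 CPM at 4 °C and 1246 CPM at 20 °C.

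Of the LSM ring genes, LSM8 itself rose, 3.99-fold (3.42 to 4.67), against 2.89-fold (2.63 to 3.18) in Col-0. The other 9 compared stayed under 2-fold, from -0.15 for LSM7 to 0.57 for LSM4. All 13 spliceosome core and assembly genes were above 0 (median 0.80), but 2 passed 2-fold: the PRP6-like factor STA1, with 103 CPM at 4 °C and 42.3 CPM at 20 °C, and SME1, an Sm ring protein, with 33.7 and 15.9 CPM. PRP8A, the central U5 protein, had 412 and 276 CPM. The risen shares, 1 of 10 LSM ring genes and 2 of 13 spliceosome genes, were near that of all genes compared. Of those 11.9% rose and 8.74% fell. The SR proteins, which choose splice sites, were mixed: 6 of 21 rose, 1 fell, and the median was 0.25. RS40 had 146 CPM at 4 °C and 32.8 CPM at 20 °C, and RS2Z32 120 and 45.9 CPM, while SCL33 fell to 14.3 CPM, against 30 CPM.

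All 17 genes of the ribosome biogenesis list rose, with a median of 1.60, against 11.9% risen of all genes compared. The list is a selection of such genes, made with earlier results of these data known, so its count is not independent support. By wording of the product, 8 of 16 pumilio, U3 or rRNA-processing genes rose and 0 fell (median 1.03). The nucleolar proteins FIB2 (a fibrillarin, 228 CPM at 4 °C and 36.8 CPM at 20 °C), NUC1 (a nucleolin, 946 and 195 CPM) and NOP56 (542 and 135 CPM) are box C/D or nucleolar components that process ribosomal RNA. REIL1 and REIL2, cytosolic factors of the large subunit, had 31.3 and 89.9 CPM at 4 °C against 14.5 and 28.3 CPM at 20 °C. In Col-0 14 of the 17 passed 2-fold, and FIB1, NOF1 and REIL1 lay just under it, with log2 ratios of 0.90, 0.94 and 0.84. NUC1 and 4 others overlap genes on the opposite strand.

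Of the 23 clock genes compared 10 rose, 2 fell and 11 stayed under 2-fold (median 0.83). The fallen share is near the 8.74% of all genes compared, of which 11.9% rose. PRR5, a repressor of morning genes, had 75.9 CPM at 4 °C and 2.27 CPM at 20 °C, 33.5-fold (27.6 to 40.9), GI had 134 and 19.1 CPM, 7.01-fold (6.54 to 7.52), and TOC1 had 62.3 and 9.46 CPM. The evening complex members ELF3 and LUX had 41.8 and 12.6 CPM at 4 °C against 9.62 and 2.94 CPM at 20 °C. FKF1, a blue-light F-box protein, had 9.1 and 0.042 CPM, and COR27, a cold- and light-regulated clock protein, 20.7 and 0.147 CPM. Of the morning genes, LHY stayed level at 326 and 322 CPM, CCA1 had 596 and 302 CPM, and their relative RVE8 31 and 62 CPM. LNK2, a coactivator of RVE8, fell to 180 CPM at 4 °C, against 508 CPM at 20 °C, and CHE, a repressor of CCA1, to 9.08 CPM, against 28.5 CPM. A difference in the hour of sampling between the libraries cannot be told apart from cold. LNK2, FKF1, ELF3 and LUX overlap genes on the opposite strand.

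**Figure D4:**
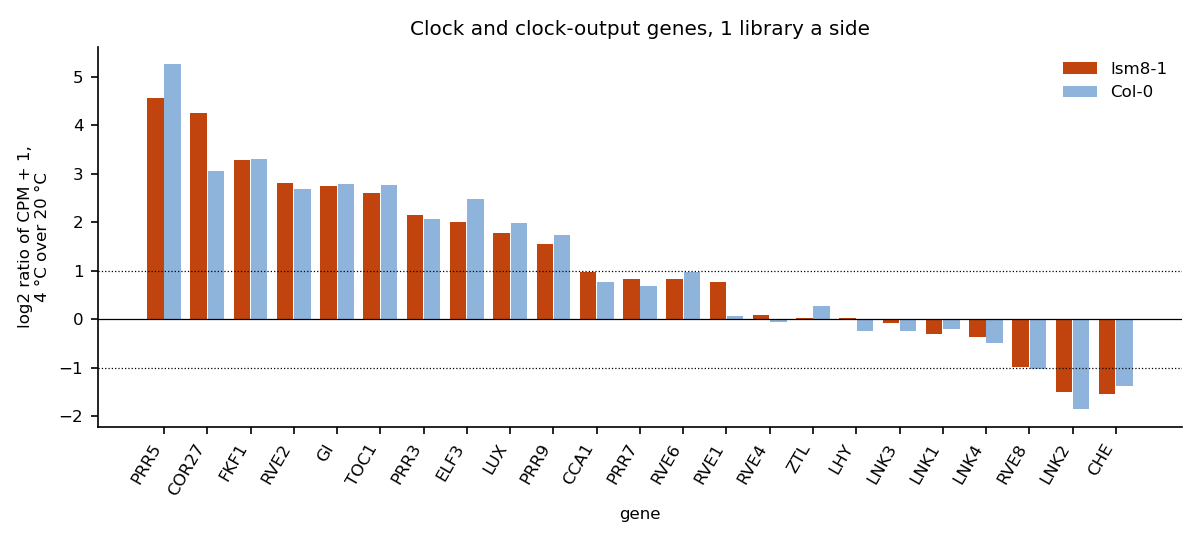
Log2 ratio of CPM + 1 at 4 °C over 20 °C for the 23 clock genes compared in lsm8-1, in lsm8-1 (red) and Col-0 (blue), 1 library a side; dotted lines mark 2-fold. PRR5 is highest in each genotype (4.56 and 5.25), and LNK2 and CHE are the lowest in lsm8-1.

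The listed genes of light harvesting and Rubisco were lower as a group and, of the lists, lost the largest share of reads. Of 23, 12 fell and none rose (median -1.02), and the list took 8.43% of reads at 4 °C and 13.4% at 20 °C. Among all genes compared, 11.9% rose and 8.74% fell. ATCG00490 of the chloroplast genome, which rose to 125 CPM at 4 °C against 9.75 CPM at 20 °C, is not in this list. RCA, the activase of Rubisco, fell to 3313 CPM at 4 °C, against 9611 CPM at 20 °C, 2.9-fold lower (2.88 to 2.92), and lost more CPM than any other gene. LHCB2.3 fell to 480 CPM, against 3994 CPM, 8.31-fold lower (8.2 to 8.43), and LHCB4.2 to 765 CPM, against 4608 CPM. The 2 members with the most reads stayed under 2-fold: RBCS1A had 22314 CPM at 4 °C and 27168 CPM at 20 °C, and LHCB1.3 had 21973 and 23502 CPM. LHCB1.1, at 5193 and 4276 CPM, was the 1 member above 0. The carbonic anhydrase CA1 (AT3G01500) fell to 3874 CPM, against 8778 CPM, LHCB1.5 to 2150 CPM, against 6268 CPM, and the PSI subunit gene PSAF, at 4477 and 8422 CPM, stayed just under 2-fold. LHCB1 and RBCS genes are near copies, so their split is uncertain.

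Most of the expansin and XTH genes, growth-promoting bHLH factors and aquaporins listed fell. EXPA8 (AT2G40610), an expansin that loosens cell walls, had the lowest ratio of all genes, 0.715 CPM at 4 °C and 90.9 CPM at 20 °C, 127-fold lower (90.9 to 184). Of the 16 genes compared from the list of expansins and XTH enzymes, which holds only part of these families, 9 fell and none rose (median -1.41), among them EXPA1 at 47.6 and 259 CPM and the xyloglucan enzymes XTH4 at 121 and 351 CPM and XTH7 at 27.9 and 146 CPM, while EXPA10 had 74.5 and 39.3 CPM. By wording of the product, 17 expansin genes were compared, of which 6 fell and 2 rose (median -0.67). EXPA16 rose 18.9-fold (16.2 to 22.3), with 65.3 CPM at 4 °C and 3.45 CPM at 20 °C, and EXPA9 rose with 11.2 and 4.22 CPM. The growth-promoting bHLH factors fell in 5 of 7 cases: PIF4, which links light and temperature to elongation, had 9.78 CPM at 4 °C and 139 CPM at 20 °C, 14.2-fold lower (12.9 to 15.7), PIF5 had 91 and 281 CPM, PIF1 5.91 and 37.2 CPM, and the brassinosteroid-related BEE2 16.3 and 90.6 CPM. PIF3 and PIF7 stayed under 2-fold. The plasma membrane aquaporins, water channels, fell in 8 of 12 cases (median -1.55). PIP2;1 had 415 CPM at 4 °C and 1553 CPM at 20 °C and PIP1;5 11.5 and 80.6 CPM, while PIP2;5, with log2 0.76, and PIP2;6, with 0.11, stood above 0.

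The others of the 15 lowest genes had varied roles. The gibberellin-regulated GASA6 (AT1G74670) had 1.62 CPM at 4 °C and 102 CPM at 20 °C, the beta-xylosidase BXL1 (AT5G49360) 2.94 and 135 CPM, LNG2 (AT3G02170), which promotes elongation of leaf cells, 4.29 and 86.3 CPM, and the arabinogalactan protein FLA9 (AT1G03870) 15.9 and 259 CPM. The vacuolar aquaporin DELTA-TIP (AT3G16240) had 66.8 and 1010 CPM, 15.1-fold lower (14.6 to 15.7). The bZIP factors BZIP61 (AT3G58120) and BZIP34 (AT2G42380) had 1.56 and 1.77 CPM at 4 °C against 66.1 and 43.7 CPM at 20 °C. The SAUR-type gene AT1G72430 had 16.4 and 273 CPM, the phosphatase gene AT5G02760 1.75 and 42.3 CPM, and the ovate-family gene OFP16 (AT2G32100) 2.19 and 43.2 CPM. The uncharacterized genes AT1G13650, AT5G19190, AT3G06070 and AT4G33666 had log2 ratios from -5.20 to -3.83. Of gibberellin genes, 2 of 7 rose, the receptors GID1A and GID1B, and 2 fell, the DELLA repressors GAI (9.17 and 24.1 CPM) and RGL2 (3.72 and 8.91 CPM). Low-light and sugar-starvation reporters fell in 3 of 4 cases, among them DIN10 at 6.03 CPM at 4 °C and 37 CPM at 20 °C and SEN1 at 0.21 and 5.19 CPM. Of 12 cell cycle genes 0 rose and 1 fell (CYCD3;1, at 16.5 and 47.5 CPM), a fallen share near that of all genes. These list counts stand beside 11.9% risen and 8.74% fallen of all genes compared.

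Phenylpropanoid and flavonoid genes rose together, 17 of 22 with none falling (median 1.84). For this list and the next, the shares of all genes compared were 11.9% risen and 8.74% fallen. From the entry enzyme on, PAL2 had 772 CPM at 4 °C and 245 CPM at 20 °C, CHS, chalcone synthase, 5282 and 870 CPM, CHI 162 and 24.2 CPM, F3H 289 and 26.7 CPM and TT7 205 and 15.5 CPM. The flavonol branch enzyme FLS1 had 269 and 57.5 CPM, the anthocyanin steps DFR and LDOX 113 and 70.5 CPM at 4 °C against 53.1 and 23 CPM at 20 °C, and the transporter-linked TT19 129 and 19 CPM. Regulators rose too, MYB12 and MYB111 of the flavonols at 7.34 and 50.4 CPM against 0.336 and 5.65 CPM, and MYB75 of anthocyanins at 47.6 CPM against 8.47 CPM. The repressor MYBL2 was at 19.7 and 37.8 CPM. Abscisic acid genes rose in 14 of 22 cases with none falling (median 1.16): the synthesis enzyme NCED3 had 28.3 CPM at 4 °C and 2.96 CPM at 20 °C, the phosphatases HAI2 and ABI1 9.29 and 74.9 CPM against 0.42 and 17.9 CPM, and the factor DREB2A 22.3 CPM against 1.3 CPM.

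Stress lists outside cold were mixed, to be read against 11.9% risen and 8.74% fallen of all genes compared. Of 16 salicylic acid genes 3 rose and 2 fell (median 0.19): PR5 had 470 CPM at 4 °C and 25.5 CPM at 20 °C, PR2 122 and 37.4 CPM and WRKY53 75 and 7.04 CPM, while WRKY70 fell to 20.3 CPM, against 65.5 CPM, and PR1 stood at 25.4 and 20.4 CPM. Of 16 jasmonate genes 2 rose, JAZ1 (51.3 and 8.66 CPM) and AOC2 (107 and 33.9 CPM), and none fell. Mitochondrial stress genes rose in 7 of 11 cases (median 1.31), with the alternative dehydrogenases NDB2 and NDB4 at 86.2 and 12.8 CPM at 4 °C against 11.1 and 0.63 CPM at 20 °C, the alternative oxidase AOX1A at 196 CPM against 83.9 CPM and the glycosyltransferase UGT74E2 at 64.4 CPM against 9.48 CPM. Among heat shock genes 2 of 8 rose and 1 fell, HSP70-4 at 244 and 35.4 CPM being the highest, and AT3G09440, an Hsp70 gene outside the list, gained the fifth most CPM, with 4894 and 1011 CPM. Of 10 superoxide dismutase, catalase and ascorbate peroxidase genes none passed 2-fold, of 18 glucosinolate genes 1 fell (MYB34, 8.71 and 24.8 CPM), and of 6 iron genes 2 rose (the ferritin FER3, 171 and 47.5 CPM, and the peptide gene IMA2, 6.85 and 2.58 CPM). Of 7 flowering genes CO, SOC1 and MAF3 rose, to 10.3, 74.1 and 19.2 CPM at 4 °C, against 2.96, 27.3 and 7.94 CPM at 20 °C. Of 9 reference genes GAPC1 rose, at 1255 and 391 CPM, and the others ranged from -0.48 to 0.87.

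Of the 58 chloroplast genome genes compared 19 rose and 2 fell (median 0.20), beside 11.9% risen and 8.74% fallen of all genes compared. Their summed level was 10073 CPM at 4 °C and 10608 CPM at 20 °C. The library kit is not stated, so how well these reads reflect organelle RNA levels is not known. ATCG00490 had 125 CPM at 4 °C and 9.75 CPM at 20 °C. Of 7 mitochondrial genome genes compared none rose and 1 fell. By gene structure, 14.5% of genes that rose and 17.7% of genes that fell had a single exon, against 10.2% of all compared, and the median number of exons was 5 in risen genes, 4 in fallen genes and 6 in all.

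By wording of the annotated product, the 10 longest lists were examined, again beside 11.9% risen and 8.74% fallen of all genes. Genes with the exact wording pentatricopeptide repeat (PPR) superfamily protein rose in 28 of 86 cases and fell in 1 (median 0.69). Proteins of this type bind organelle RNA, and genes with other wordings for it are not in this count. AT5G02860 had 35.6 CPM at 4 °C and 6.16 CPM at 20 °C, and BIR6, of mitochondrial splicing, 18.4 and 4.08 CPM, while AT3G59300 fell, to 6.12 CPM against 25.7 CPM, and AT4G18975 had 8.71 and 18.1 CPM. Among tetratricopeptide-like proteins 33 of 147 rose and 11 fell, with AT1G80130 (log2 2.95) and AT3G13150 (2.47) highest and AT4G28080 (-1.86) and AT2G47440 (-2.25) lowest. P-loop hydrolases rose in 31 of 117 cases and fell in 9, from ABCI19 (2.79) and ABCI21 (2.52) to AT3G45850 (-1.57) and AT2G03750 (-1.91). WD40 proteins rose in 18 of 92 cases and fell in 4, with AT1G49450 (3.55), AT2G18900 (2.34), ATAN11 (-1.34) and AT3G06880 (-1.37) at the ends. Methyltransferases, with 12 of 82 risen (14.6%) and 6 fallen (7.32%), lay near the share of all genes, with PXMT1 (3.85), AT4G26600 (2.01), AT3G61210 (-1.92) and AT1G01180 (-2.15). Of the ARM repeat proteins 12 of 88 rose (13.6%, also near that of all genes) and 4 fell, the ubiquitin ligase PUB19 at 5.46 and AT3G06530 at 2.04 being highest and AT1G71020 (-1.17) and AT1G27210 (-2.04) lowest. Kinases (13 rose and 14 fell of 181), RING proteins (7 and 12 of 126), alpha/beta-hydrolases (11 and 13 of 107) and RRM proteins (6 and 6 of 83) were closer to balanced. Their ends were ARCK1 (2.75), AT4G35030 (2.14), PERK15 (-2.17) and AT4G01330 (-3.0) for the kinases, AT1G24580 (2.97), AT1G67856 (2.27), AT1G49200 (-2.07) and AT3G18773 (-2.62) for RING, AT3G24420 (2.78), AT1G73480 (2.43), BRS1 (-2.25) and AT5G18630 (-2.37) for the hydrolases, and AT3G23370 (1.44), Y14 (1.32), AT1G03457 (-1.97) and AT1G22330 (-3.39) for RRM.

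Set beside Col-0, most genes that rose or fell in lsm8-1 lay on the same side of 0. Col-0 shares no library with lsm8-1, and the difference between them has no test. In Col-0 1712 of 13846 genes rose (12.4%) and 1364 fell (9.85%). The genes that rose in both genotypes numbered 1309, which is 78.8% of the genes that rose in lsm8-1 and 76.5% of those that rose in Col-0. For genes that fell, the 954 shared were 78.1% and 69.9%. No gene rose in one genotype and fell in the other past 2-fold, and 1653 of the 1662 risen genes had a ratio above 0 in Col-0, as 1221 of the 1222 fallen genes had one below 0. Across the 13511 genes compared in both, Pearson's r was 0.94 and Spearman's rho 0.91; genes are not independent replicates. The ratios lay within 0.5 of each other for 88.5% of genes, and differed by 1 or more for 90 genes (higher in lsm8-1) and by -1 or less for 40.

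**Figure D5:**
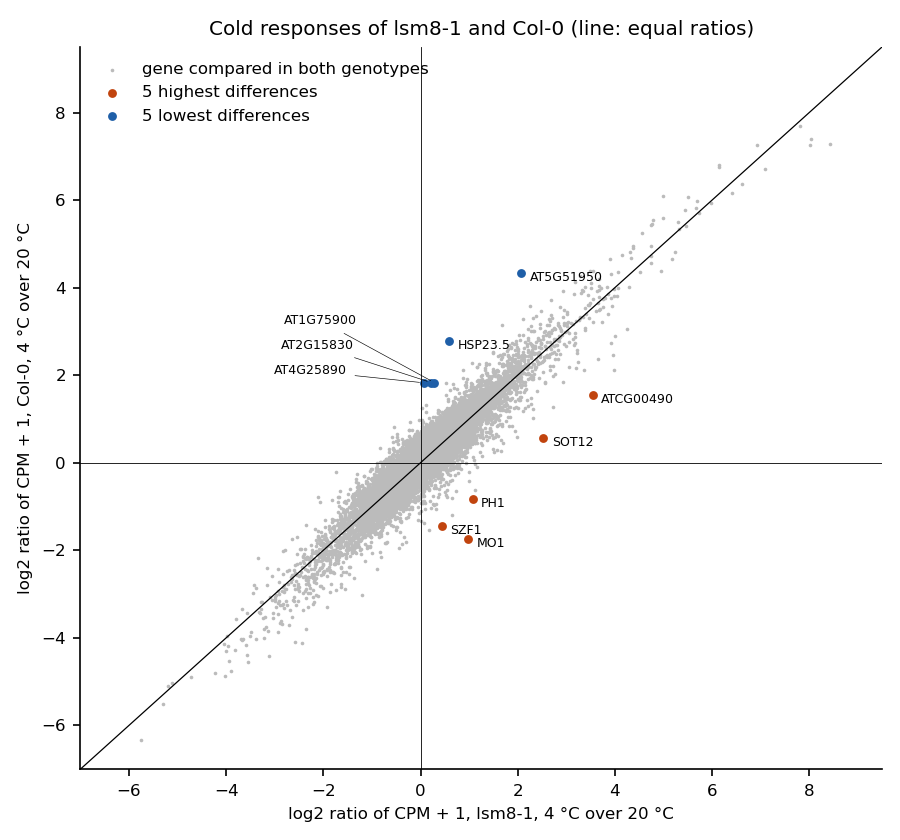
Each point is 1 of the 13511 genes compared in both genotypes, placed by its log2 ratio of CPM + 1 at 4 °C over 20 °C in lsm8-1 (horizontal) and Col-0 (vertical); the line marks equal ratios. Most points lie near the line (88.5% within 0.5), and the labelled genes have the largest differences.

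Of the genes with the largest differences, 3 (MO1, PH1 and SZF1) were higher at 4 °C in lsm8-1 and lower at 4 °C in Col-0. MO1, a monooxygenase, had 56.6 CPM at 4 °C and 28.2 CPM at 20 °C in lsm8-1, against 4.73 and 18.2 CPM in Col-0, a difference of 2.72 in log2 ratio. SOT12, a sulfotransferase, had 287 and 48.9 CPM in lsm8-1, against 18.5 and 12.1 CPM in Col-0 (1.95), PH1 25.5 and 11.6 CPM against 16.6 and 30.1 CPM (1.89), SZF1 26.1 and 19 CPM against 10.1 and 29 CPM (1.88), and ATCG00490 125 and 9.75 CPM against 78.9 and 26.2 CPM (1.99). In the other direction, AT5G51950, an oxidoreductase, had 7.11 and 0.925 CPM in lsm8-1 against 29.9 and 0.529 CPM in Col-0 (-2.26), and HSP23.5, a small heat shock protein of mitochondria, 57 and 37.5 CPM against 16.8 and 1.59 CPM (-2.19). AT4G25890 had 31.1 and 29.6 CPM in lsm8-1 against 66.5 and 18 CPM in Col-0 (-1.76), AT2G15830 5.15 and 4.29 CPM against 10 and 2.09 CPM (-1.61), and AT1G75900 63.9 and 52.3 CPM against 168 and 46.3 CPM (-1.55). At list level, the light harvesting genes fell in 12 of 23 cases in lsm8-1 and 18 of 23 in Col-0 (medians -1.02 and -1.44), the flavonoid genes rose in 17 and 19 of 22 (1.84 and 2.2), and the COR genes in 18 of 19 in both (4.74 and 4.57). Of the lists, the salicylic acid genes had the widest gap between medians, 0.19 in lsm8-1 (3 of 16 rose and 2 fell) and -0.79 in Col-0 (3 of 13 rose and 4 fell). The 2 medians do not cover the same genes, because the 5 CPM limit was applied to each genotype separately. No median over the shared genes was computed, so the gap is not a difference between like sets. CBP60G, an activator of salicylic acid synthesis, had log2 ratios of 0.54 in lsm8-1 and -0.79 in Col-0, PBS3, an enzyme of that synthesis, 0.37 and -0.79, and WRKY53 3.24 and 2.3. Mitochondrial stress genes rose in 7 of 11 cases in lsm8-1 and in 4 of 8 in Col-0, again over sets that are not the same.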

How the data were processed

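RNA of Arabidopsis leaf material was sequenced, and 1 table per library was deposited. Per the file headers, each table lists uniquely mapped read counts per AGI locus, RPKM and the percent of each gene covered; the authors' deposited RPKM equals the count per kilobase per 1e6 counts in the table. Genes not listed were taken as 0. The build is TAIR10, per the submitters' processing notes; aligner, strand setting and library kit were not given in the sources used here. Gene names, positions, exons and the sequences come from the RefSeq annotation of TAIR10.1; 23173 of 23364 loci matched. Counts were scaled over the 4 cold libraries by TMM in edgeR 4.0.16 (R 4.3.3), and log2 ratios used a pseudocount of 1 CPM and genes of 5 CPM or more in at least 1 library of the pair. Wilson and exact 95% intervals describe counting error alone: PCR copies of a molecule were not told apart. With 1 library per group there is no test. The 35 lists hold 501 genes. The members and lists were chosen with earlier results of these data known. The text names the members of these lists, the 15 highest and 15 lowest ratios, the 5 largest gains and losses of CPM, the 5 largest differences from Col-0 each way and the ends of the 10 longest product lists. The calculations were tested on simulated data. Alternatives covered the scaling (library totals, DESeq2 1.42.0 size factors, TMM within genotype, organelle genes left out), the filter, the pseudocount and the fold.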

Additional observations from a re-analysis of the deposited data

Results flagged for a closer look

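Among the genes of the lists and of the naming rule, 5 moved past 2-fold in 1 genotype and the other way in the other genotype; the difference between the genotypes was not tested, since each value rests on 1 library. ERD6, a sugar transporter-like gene, had log2 ratios of 1.01 in lsm8-1 and -0.41 in Col-0 (difference 1.41). PH1 had 1.07 and -0.82 (1.89), SZF1 0.44 and -1.44 (1.88), MO1 0.98 and -1.74 (2.72), and the mitochondrial carrier gene DIC2 0.66 and -1.20 (1.86).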

How the results depend on the processing

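No paired analysis was possible because each group holds 1 library and the labels carry no replicate numbers; for the same reason no library could be left out. Under library totals, DESeq2 size factors, TMM within genotype, 1 CPM or no filter, a pseudocount of 0.5 CPM and the removal of organelle genes, the counts of genes that rose, fell or did so in both genotypes stayed within 1.5 times those given, as did the counts without genes that overlap the opposite strand (1219 rose and 905 fell; chosen after seeing the data). With a filter of 20 CPM 720 genes fell, 575 of them in both genotypes, and with a pseudocount of 5 CPM 754 and 622; the filter left 7907 genes to compare, and the pseudocount, which shrinks the ratios of low genes, left 13988. At 4-fold 398 rose and 253 fell, 327 and 218 in both genotypes. In a window of 1000 bases, also chosen after seeing the data, CCGAC was found in 44.9% of risen, 34.9% of fallen and 39.4% of all genes, the evening element in 12.2%, 6.49% and 7.35%, and ACGTG in 58%, 55.3% and 54.5%. Of 700 counts by list and setting, 641 stayed within 1.5 times. Many of these counts were 0 as reported and had little room to move, so this says little about stability. Of 592 genes of the lists, the naming rule and the product families, recomputed under 6 alternatives of scaling or pseudocount, 349 were past 2-fold as reported. Of these, 41 fell short of 2-fold in at least 1 alternative. None changed direction, but a pseudocount cannot change it and the scalings differed too little to do so. Depth limits the genes under 5 CPM, among them CBF1.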

Other observations

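Beyond the lists above, other families were read out by words in the annotated product, chosen with results in view. SAUR genes, auxin-induced genes of cell expansion, fell in 12 of 17 cases and rose in 1 (median -2.12 in lsm8-1, -2.57 in Col-0). SAUR20 had 0.673 CPM at 4 °C and 19 CPM at 20 °C, and AT1G16510 was the member that rose, with 9.44 and 1.45 CPM. B-box genes, zinc-finger proteins of light signalling, rose in 9 of 18 cases and fell in 2, BBX29 having 70.3 and 4.83 CPM and BBX27 2.31 and 30.5 CPM. UDP-glycosyltransferase and related genes rose in 22 of 76 cases and fell in 7, and glutathione S-transferase genes rose in 8 of 31 and fell in 3. GSTF6 had 880 CPM at 4 °C and 54.5 CPM at 20 °C, and GSTU18 fell, to 6.06 CPM, against 42.2 CPM. WRKY factors rose in 10 of 28 cases and fell in 1, with WRKY30 at 26.1 and 1.6 CPM. Genes worded as ribosomal proteins, with organelle wording left out, rose in 33 of 282 cases and fell in 3 (median 0.53). All of this is set against 11.9% risen and 8.74% fallen among all genes compared, with no test.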
